A study of Mus musculus with 8 samples.

Results

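The response described here is that of wild-type mouse macrophages to 6 h of lipopolysaccharide (LPS), an outer membrane component of bacteria. It was taken as the array of cells given LPS for 6 h against the array of unstimulated cells of the same genotype, which makes 2 of the 8 arrays of the series. Of the 12394 genes named on the array, 6936 were bright enough on at least 1 of the 2 arrays to be compared. The cells with LPS were wild-type C57BL/6 macrophages grown from the bone marrow of mice 6 to 8 weeks old, kept 7 days with M-CSF and 10% serum, then plated and given 1 µg/ml of smooth LPS for 6 h. The unstimulated cells had the same origin and growth and received no LPS. Arrays of wild-type cells after 24 h of LPS, of wild-type cells given LPS with EGTA (a calcium chelator) for 6 h, and of CD14-deficient cells after 6 h of LPS and unstimulated are set beside these where they bear on a gene. The series as a whole asked, by its title, how conditions that allow or block the transcription factor NFAT change the LPS response.

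LPS is carried by CD14 to the receptor TLR4 and its partner MD-2. From there the adaptor MyD88 activates NF-kB and MAP kinases, and the adaptor TRIF activates interferon regulatory factors, so that macrophages make inflammatory cytokines first and interferon-induced genes in a second wave. The same response switches on its own brakes and reprograms metabolism, iron handling and proliferation.

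Each group was 1 array, so no difference below has a replicate check, no test was possible and no p-value is given. Values are fluorescence intensities on a common scale after quantile normalisation, raised to a floor of 38.4, and levels of different genes are not comparable. A gene counted as higher or lower when its intensities differed at least 2-fold, and where 1 of the 2 arrays sat at that floor the fold is written "at least". By the protocols, unstimulated cells were collected 24 h after plating, while LPS was added at plating and the cells collected 6 h later, so LPS and time since plating cannot be told apart. Nor can fewer cells of a type and less RNA per cell. RNA integrity numbers were 9.3 with LPS and 9.6 without, and labelled cRNA yields were 76 µg with LPS and 53.1 µg without, from 0.3 µg of RNA each. All 19 macrophage identity genes on the array were bright enough to be compared, and 16 of the 19 differed less than 2-fold. That share was close to the 5550 of 6936 of all compared genes, so it is no particular check of the macrophage label. The summed intensity of the 19 genes was 143557 with LPS and 149800.0 without, a sum in which the brightest genes weigh most.

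Of the 6936 genes compared, 727 (10.5%) were at least 2-fold higher after 6 h of LPS and 659 (9.50%) at least 2-fold lower, while 5550 lay within 2-fold. Large differences were mostly increases. At 4-fold there were 242 higher and 82 lower genes, at 8-fold 88 and 12, at 16-fold 28 and 2, and at 32-fold 7 and 1. The central 95% of log2 differences ran from -1.62 to 2.29 with a median of -0.12. For scale, the difference between the arrays with and without EGTA at 6 h of LPS had a central 95% from -0.58 to 0.60. That pair is a treatment contrast of its own, with 6 h of LPS on both arrays, and shares the LPS array used here. It is no measure of noise and does not carry the difference in time since plating. When the 2 arrays were instead scaled to equal medians, the median difference of all genes moved to 0.04, and when they were scaled to equal ribosomal protein medians the split became 637 higher and 896 lower. The 73 higher genes with the unstimulated array at the floor and the 55 lower genes with the LPS array at the floor have only a bound. Just inside and just outside the brightness filter of 88.2 lay Cenpf, at 88.19 on its brighter array, and Gab1, at 88.10.

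**Figure D1:**
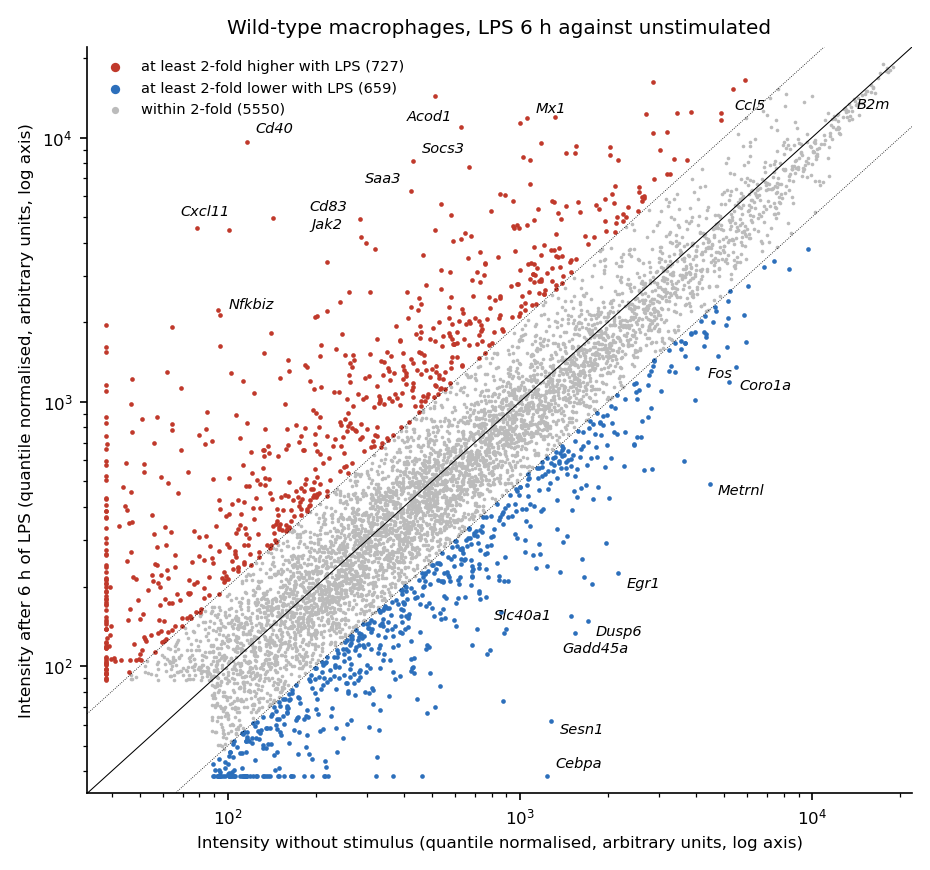
Intensity after 6 h of LPS (vertical) against intensity without stimulus (horizontal) for the 6936 genes compared, 1 array on each axis, both axes logarithmic. Red points are the 727 genes at least 2-fold higher with LPS, blue points the 659 at least 2-fold lower and grey points the 5550 within 2-fold; points along the left and lower edges sit at the floor of 38.4.

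Among pathway lists, those that stood highest were cytokines, guanylate-binding proteins with immunity-related GTPases, and NF-kB genes, with median log2 differences of 2.39, 2.23 and 2.06. The pathway lists that stood lowest were ribosome biogenesis at -0.96 and DNA replication at -0.81. Housekeeping lists barely moved. None of 45 respiratory chain subunits and none of 23 autophagy genes differed 2-fold, and 1 of 32 ribosomal proteins did. Every list count below is to be read beside the 10.5% higher and 9.50% lower of all compared genes.

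**Figure D2:**
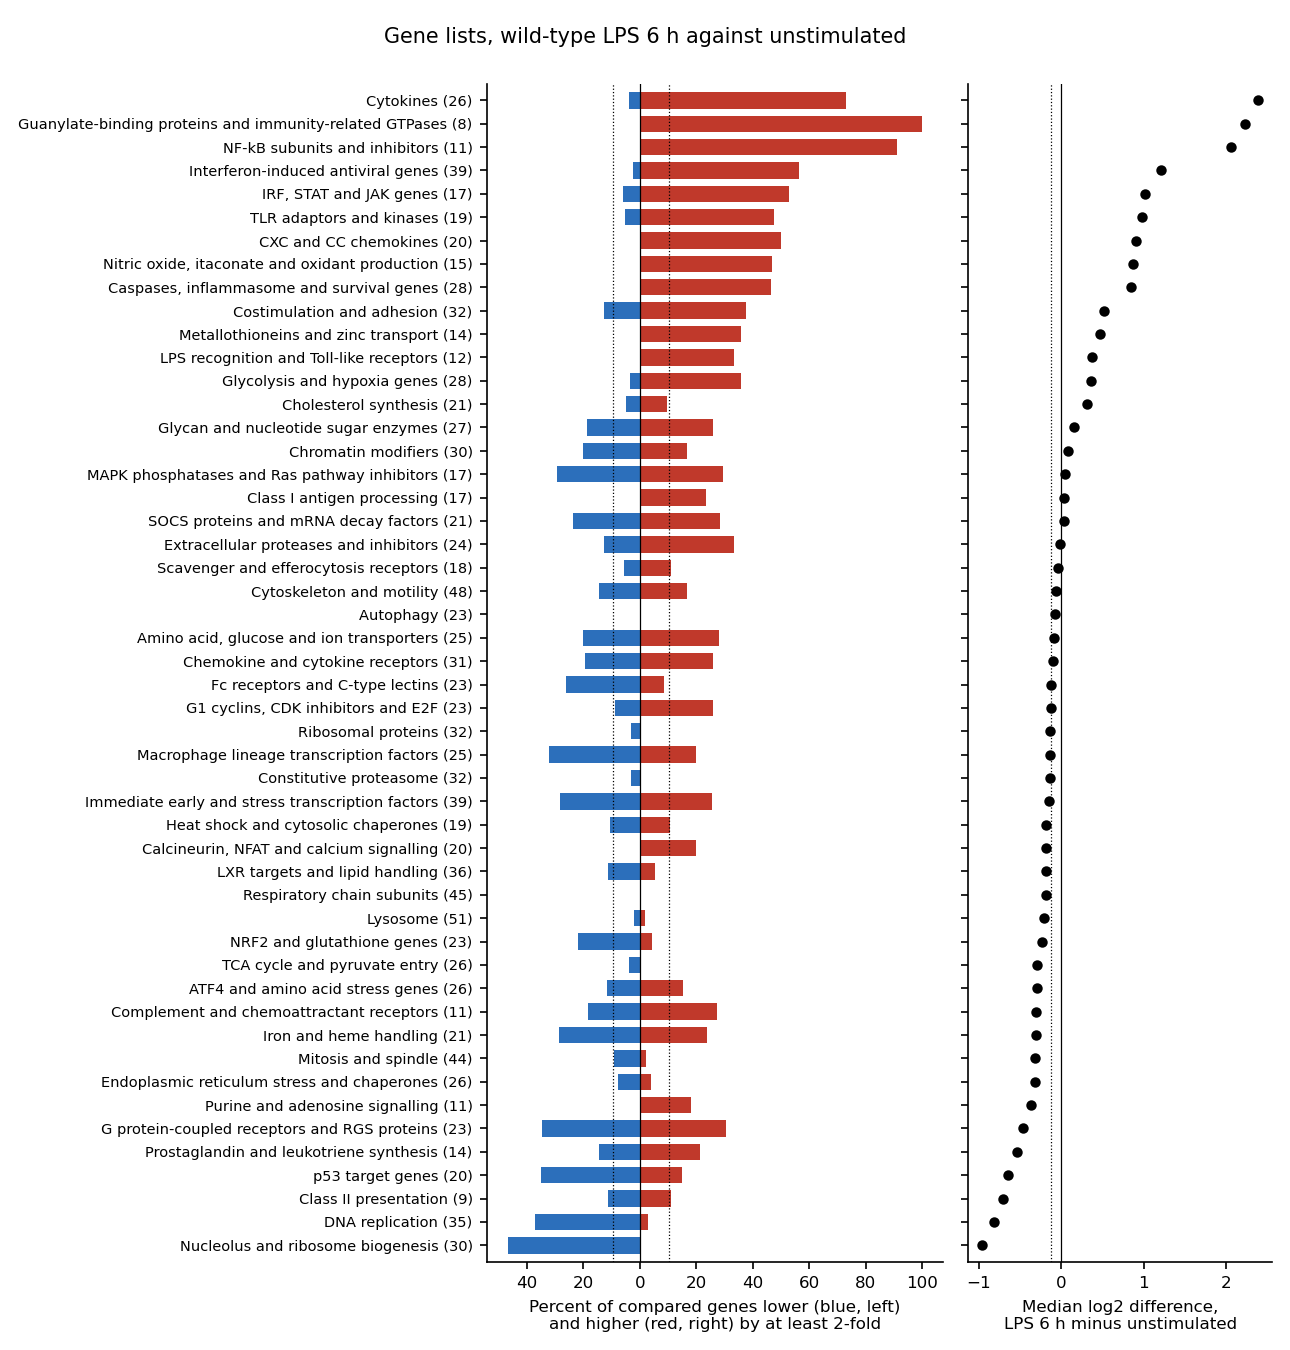
Gene lists with at least 8 compared genes (number in brackets), ordered by median. Left, the percent of each list at least 2-fold lower (blue) and higher (red) with LPS, with dotted lines at the 9.50% and 10.5% of all compared genes; right, the median log2 difference, LPS 6 h minus unstimulated, with a dotted line at the -0.12 of all genes.

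NF-kB genes stood out by how uniformly they were higher. All but 1 of the 11 compared members were at least 2-fold higher, and none was lower by that much, against 10.5% and 9.50% of all genes. Nfkbiz, an atypical inhibitor family member that licenses a secondary set of cytokine genes, measured 2133 with LPS and 94.1 without, a 22.7-fold difference. Tnfaip3, which encodes the ubiquitin-editing brake A20, measured 2602 with LPS and 306 without. Nfkbie and Bcl3, further members of the IkB family, differed 8.13-fold and 7.11-fold. Among the subunits, Nfkb2 stood at 1496 with LPS and 207 without, and Relb at 504 and 126, and Rel differed 4.18-fold. Rela, the subunit present in resting cells, was the exception at 1939.9 with LPS and 1126 without, a 1.72-fold difference. Nfkbia, the prompt inhibitor IkB-alpha, was already bright, at 11662 with LPS and 4893 without, and its 4 probe sets gave log2 differences from 1.25 to 2.45.

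The windows upstream of 3 of the higher genes are shown because they hold the NF-kB letters GGGNNTTTC, searched on both strands. Each is printed 5′ to 3′ on the gene's strand from the RefSeq promoter table of build GRCm38.p6, from 20 bases before the first match to 20 after the last or to the transcript start. Capitals mark matches to the NF-kB letters and to the letters GAAANNGAA of the interferon-stimulated response element (ISRE). Il6 encodes a cytokine described below.
Nfkbia, chr12:55492648-55492780, minus strand: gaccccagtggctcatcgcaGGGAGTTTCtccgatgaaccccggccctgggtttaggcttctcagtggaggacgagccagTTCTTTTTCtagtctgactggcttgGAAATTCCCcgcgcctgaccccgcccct
Tnfaip3, chr10:19015411-19015578, minus strand: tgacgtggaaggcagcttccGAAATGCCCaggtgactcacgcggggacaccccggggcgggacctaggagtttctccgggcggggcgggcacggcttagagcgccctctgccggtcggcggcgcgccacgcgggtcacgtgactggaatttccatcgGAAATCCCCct
Il6, chr5:30013050-30013098, plus strand: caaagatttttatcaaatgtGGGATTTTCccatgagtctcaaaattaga

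Nfkbia held 2 matches to the NF-kB letters and 1 to the ISRE letters, Tnfaip3 held 2 NF-kB matches in the window shown and Il6 held 1. The window of a second Tnfaip3 start held neither the NF-kB nor the ISRE letters. In the whole NF-kB list, 7 of 12 windows (58.3%) held the NF-kB letters, against 4.26% of the 7436 windows of all compared genes and 4.36% of all 32851 RefSeq windows. A match describes letters and is not a site.

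LPS-sensing genes changed unevenly. Of 12 compared receptors and co-receptors, 4 were higher and none lower. Tlr3, a sensor of double-stranded RNA, stood at 3584 with LPS and 465 without, and Tlr2, the lipoprotein receptor, at 4347 and 647. Cd14 itself measured 12515 with LPS and 3849 without, and Tlr6, a partner of Tlr2, differed 2.75-fold. Tlr4 went the other way within 2-fold, at 892 with LPS and 1417 without, and its co-receptor Ly96 (MD-2) measured 1274 and 923. Downstream, 9 of 19 adaptors and kinases were higher and 1 lower. Traf1, an adaptor of TNF receptors, had the largest difference, 1623 with LPS against 93.8 without. Peli1, a ubiquitin ligase of the pathway, differed 6.22-fold, Traf2 5.00-fold and Map3k8, the kinase that links NF-kB to ERK, 4.32-fold. Myd88 measured 4248 with LPS and 1671 without, whereas Tirap, the bridge between TLR4 and MyD88, was at 226 and 207.

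Cytokine genes had the highest median of the lists, with 19 of 26 compared members higher and 1 lower. Il1a, an alarmin cytokine, was at 879 with LPS and at the floor without, at least 22.9-fold higher. Il6 measured 1538 with LPS and was at the floor without. Edn1, the vasoconstrictor peptide endothelin-1, stood at 1155 with LPS and at the floor without, at least 30.1-fold higher. The array with LPS and EGTA at 6 h gave 647, 977 and 946 for these 3 genes. Tnfsf10, which encodes the death ligand TRAIL, measured 878 with LPS and 57.4 without. Il33, an alarmin best known from barrier tissues, was at 661 with LPS and at the floor without, but at 39.7 and 38.4 in CD14-deficient cells. Vegfa, the angiogenic factor, stood at 346 with LPS and 151 without, a 2.29-fold difference that was 0.97 on the log2 scale under ribosomal scaling.

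Of 20 chemokines compared, 10 were higher and none lower. Cxcl11, Cxcl10 and Cxcl9, ligands of CXCR3 that draw activated T cells, were among them. Cxcl11 had the largest difference of the list, 57.7-fold. Cxcl9 measured 1217 with LPS, 25.9-fold its unstimulated intensity. Cxcl10 was at 14314 with LPS and 511 without. Ccrl2, an atypical receptor kept in this list that presents chemerin, stood at 4958 with LPS and 143 without, a 34.7-fold difference that was second in the list. Ccl22, a ligand of CCR4, differed 9.08-fold. The neutrophil attractants Cxcl1 and Cxcl2 stood at 348 and 1507 with LPS and at 46.1 and 469 without. Several monocyte and T cell attractants were already near their LPS level before stimulation. Ccl2 measured 10430.0 with LPS and 11527 without, and Ccl5 11601 and 7558.

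Interferon-induced antiviral genes were higher in 22 of 39 cases and lower in 1, with a median log2 difference of 1.21. Mx1 and Mx2, dynamin-like GTPases that block virus replication, measured 11887 and 1529.7 with LPS, against 1061 and 133 without. Oasl1, of the oligoadenylate synthetase family, stood at 7717 with LPS and 669 without, and Ifih1, the RNA sensor MDA5, at 8704 and 1437. Isg20, an exonuclease, differed 6.08-fold. All 8 compared genes in the list of guanylate-binding proteins and immunity-related GTPases were higher, from 2.21-fold for Irgm1 to 9.08-fold for Iigp1. Such proteins attack the vacuoles of intracellular pathogens, and the list does not hold every member of these families.

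Many of these genes already had high intensities before LPS in wild-type cells. Ifit2 measured 15208 with LPS and 7652 without and missed the 2-fold mark at 1.99-fold, Ifit3 stood at 14104 and 7179, and Irf7, the amplifier of type I interferon, at 6881 and 6118. Ms4a4c was nearly level at 5070.5 and 4786. The unstimulated CD14-deficient array, which shares no sample with these, gave 196 for Ifit2, 163 for Ifit3, 188 for Irf7 and 40.2 for Ms4a4c, while its LPS array gave 14058, 11732, 5178 and 2409. The levels reached with LPS were closer between genotypes than the levels before it. Ccl5 showed the same pattern at 11789.7 with LPS and 38.4, the floor, without in CD14-deficient cells. Interferon-induced genes were higher in 36 of 39 cases there, against 10.3% of all genes, and with 1 culture per genotype the part of genotype, culture and stimulus in that difference was not tested.

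**Figure D3:**
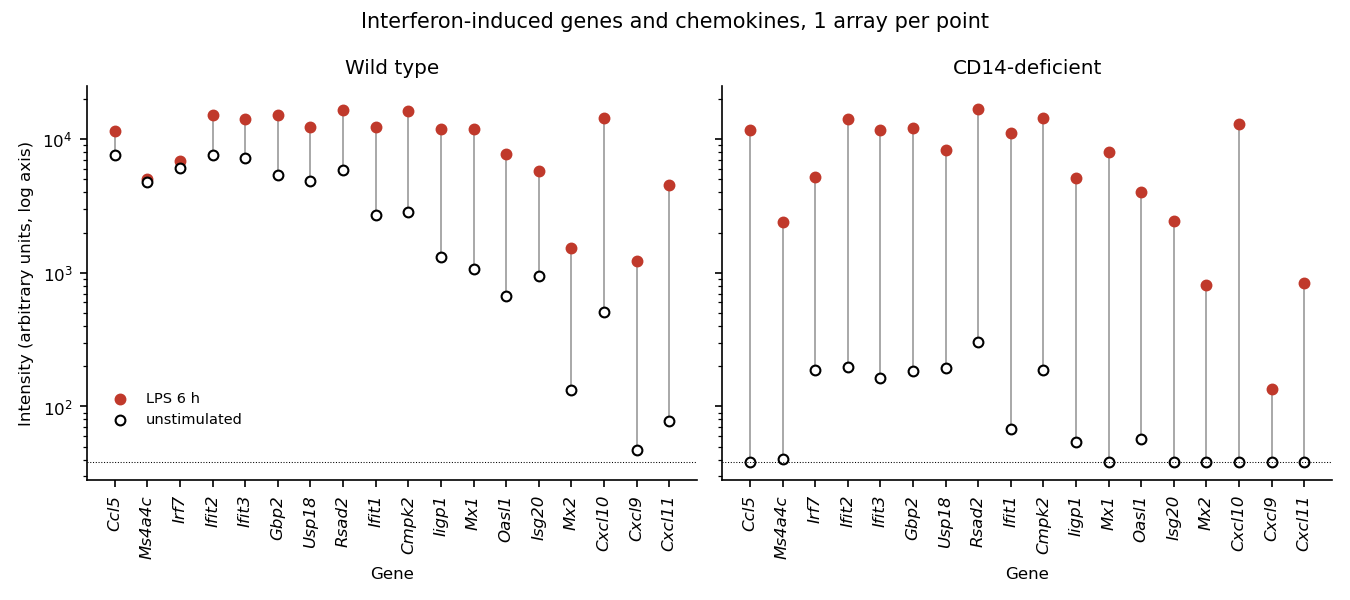
Intensity (log axis) of 18 interferon-induced genes and chemokines with 6 h of LPS (red) and without stimulus (open) in wild-type (left) and CD14-deficient cells (right), 1 array per point, with a dotted line at the floor of 38.4. In wild type the open points of Ccl5, Ms4a4c, Irf7, Ifit2 and Ifit3 lie between 4786 and 7652, and in CD14-deficient cells between 38.4 and 196.

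Upstream windows of 3 interferon-responsive genes are shown because each holds the ISRE letters, with the same marks and source. Ifit1, whose protein binds foreign RNA ends, measured 12313 with LPS and 2704 without.
Ifit1, chr19:34640760-34640833, plus strand: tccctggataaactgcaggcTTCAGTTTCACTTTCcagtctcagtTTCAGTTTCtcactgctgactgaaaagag
Cxcl10, chr5:92349074-92349122, minus strand: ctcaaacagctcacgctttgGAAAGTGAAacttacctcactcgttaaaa
Cxcl9, chr5:92328205-92328274, minus strand: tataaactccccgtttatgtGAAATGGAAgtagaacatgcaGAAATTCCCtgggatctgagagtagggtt

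Ifit1 held 3 matches to the ISRE letters, of which 2 overlap, and none to the NF-kB letters. Cxcl10 held 1 ISRE match in its window, and Cxcl9 held 1 of each. Among the antiviral list, 14 of 38 windows (36.8%) held the ISRE letters, against 7.32% of the windows of all compared genes, and 1 of 38 (2.63%) held the NF-kB letters.

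Signalling genes of the interferon pathway were higher too, in 9 of 17 cases with 1 lower. Jak2, a receptor kinase, showed the largest difference at 4186 with LPS and 286 without, and both of its probe sets exceeded 8-fold, with log2 differences of 3.87 and 4.41. Irf1 measured 5098 with LPS and 579.7 without, an 8.79-fold difference. Stat3 and Stat5a, which carry cytokine signals to the nucleus, differed 5.09-fold and 4.54-fold, and Stat2, part of the complex that binds the ISRE, 2.86-fold. Irf8, a factor of macrophage development, was at 1186 with LPS and 1513 without.

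Of 17 genes of class I antigen processing 4 were higher and none lower, against 10.5% and 9.50% of all genes, among them the peptide transporters Tap1, at 4668 with LPS and 1057 without, and Tap2, at 1725 and 585. The mean over its probe sets gave Tap1 a log2 difference of 0.86, below 2-fold, while its most intense probe set gave 2.14. B2m, the light chain of class I, was at 15400.5 and 16239. The median log2 difference was 0.04 for class I and -0.70 over 9 class II genes. In class II 1 gene was lower by at least 2-fold, Cd74, and 1 higher, Ciita. H2-Aa measured 1027 with LPS and 2042 without, H2-Ab1 575 and 928, and Cd74, the invariant chain, 1367 and 2851. At 24 h of LPS these 3 genes were at 3018, 2089 and 5667. Ciita, the master activator of class II, was at 89.6 with LPS and at the floor without, at least 2.34-fold higher. Cd74 was under 2-fold as deposited and under the equal median and ribosomal scalings.

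Among costimulation and adhesion genes 12 of 32 were higher and 4 lower. Cd40 had the largest difference on the array, and its 2 probe sets gave log2 differences of 6.37 and 6.59. Cd83, a marker of mature antigen-presenting cells, measured 4921 with LPS and 283 without, and stood at 742 at 24 h. Icam1 differed 7.56-fold, Cd200 7.24-fold, and the checkpoint ligand Cd274 (PD-L1) 5.97-fold. Cd86 measured 3006 with LPS and 751 without. The integrins Itgam and Itgax were on the low side, at 662 and 144 with LPS and at 1287 and 299 without.

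Brakes on cytokine signalling differed in both directions. Socs3 and Socs1, which switch off JAK kinases, measured 8136 and 711 with LPS and 432 and 88.3 without. Zc3h12a, the RNase Regnase-1 that degrades cytokine mRNA, stood at 694 with LPS and 83.3 without. Zfp36l1, which also promotes mRNA decay, ran the other way. It was at 73.6 with LPS and 875 without, a difference of 11.9-fold on its brightest probe set and of -1.75 on the log2 scale on its other one. Inpp5d, the lipid phosphatase SHIP1, differed 4.76-fold in the same direction, at 294 with LPS and 1399.6 without. In all, 6 of 21 SOCS and decay genes were higher and 5 lower, against 10.5% and 9.50% of all genes. At the higher floor 3 were lower. MAP kinase phosphatases and Ras inhibitors likewise split into 5 higher and 5 lower of 17, with 3 lower under equal medians and 2 with the mean over probe sets. Dusp1 and Dusp2, nuclear phosphatases of MAP kinases, measured 5565 and 340.4 with LPS and 1823 and 91.0 without, whereas the ERK phosphatases Dusp6 and Dusp7 measured 148 and 157 with LPS and 1707 and 417 without.

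Mir155hg, the host transcript of a microRNA that adjusts inflammatory signalling, was outside the naming rule and was chosen after its values were seen. It measured 507 with LPS and was at the floor without, at least 13.2-fold higher. The array read the host transcript and not the microRNA, whose mature 5p sequence from RefSeq (GRCm38.p6) is given with its seed, bases 2 to 8, in capitals.
mmu-miR-155-5p, chr16:84714143-84714165, plus strand: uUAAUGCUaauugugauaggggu

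Genes that make antimicrobial effectors were higher in 7 of 15 cases with none lower. Nos2, the inducible nitric oxide synthase, measured 832 with LPS and was at the floor without, at least 21.7-fold higher. Slc7a2, which imports its substrate arginine, differed 12.1-fold, and Gch1, which makes its cofactor, 3.26-fold. Acod1, the enzyme of itaconate synthesis, stood at 10967 with LPS and 629 without. Sod2, the mitochondrial superoxide dismutase, and Cybb, the oxidase subunit gp91phox, measured 8226 and 5966 with LPS and 2164 and 2616 without.

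In prostaglandin and leukotriene synthesis 3 of 14 genes were higher and 2 lower, against 10.5% and 9.50% of all genes. The median log2 difference was -0.53, against -0.12 over all genes. Steps toward prostaglandin E2 were among the higher genes. Pla2g4a, which frees arachidonic acid, measured 1698 with LPS and 389 without, and Ptges, the terminal synthase, 657 and 69.1. Ptges stood at 2711 by 24 h. Ptger2, a receptor of the product, was at the floor with LPS and at 165 without, at least 4.29-fold lower.

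Iron genes moved in both directions, with 5 of 21 higher and 6 lower, against 10.5% and 9.50% of all genes. Hamp, the hormone hepcidin, measured 1095 with LPS and was at the floor without, at least 28.5-fold higher on one probe set and with a log2 difference of 4.41 on another. Lcn2, which binds bacterial siderophores, was at least 10.1-fold higher at 388 with LPS, and Slc11a2, an iron importer, differed 2.44-fold. On the lower side stood Slc40a1, the only known iron exporter, at 154 with LPS and 1499.7 without, and Ncoa4, the receptor that delivers ferritin for breakdown, at 1353 and 5482. Slc11a1 (NRAMP1), which pumps metal out of the phagosome, measured 1027 with LPS and 2523 without, and Hmox1, which degrades heme, 1801 and 4353. Under equal median scaling Slc11a1 and Hmox1 fell short of 2-fold.

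Zinc-handling genes were higher in 5 of 14 cases and lower in none. The metallothionein Mt2 measured 8446 with LPS and 1027 without, and Mt1 8311 and 3358. Slc30a4 and Slc30a1, which move zinc out of the cytosol, differed 10.0-fold and 4.24-fold, and Slc39a14, which brings zinc and iron in, 2.27-fold. At 24 h Mt2 was at 1621 and Slc30a4 at 349.8.

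Of 28 glycolysis and hypoxia genes 10 were higher and 1 lower, against 10.5% and 9.50% of all genes. Hk1 and Hk2, the first enzymes of glycolysis, measured 2846 and 1832 with LPS and 1116 and 817 without. Ak4, Ndrg1, Bnip3 and Hilpda, all known hypoxia-induced genes, measured 519.9, 2419.6, 1991 and 1033 with LPS and 58.9, 821, 677 and 379 without. Slc2a3, a glucose transporter, stood against the rest at 66.5 with LPS and 479.7 without, and Ldha was level, at 8827 and 9138. None of 26 genes of the TCA cycle and pyruvate entry was higher and 1 was lower, Idh1, the cytosolic isocitrate dehydrogenase, at 847 with LPS and 2613 without. In CD14-deficient cells 1 of 28 glycolysis and hypoxia genes was higher and 2 lower. There Ndrg1 was at 2240.4 with LPS and 2014 without, Bnip3 at 2079 and 2168 and Slc2a1 at 3427 and 2649, and the unstimulated levels of Ndrg1, Bnip3 and Slc2a1 were higher than in wild type.

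Among 36 LXR targets and lipid genes 2 were higher and 4 lower, and in cholesterol synthesis 2 of 21 were higher and 1 lower. All genes gave 10.5% higher and 9.50% lower, so the 4 and the 2 of 21 were near the overall rate. Ch25h, which makes the antiviral sterol 25-hydroxycholesterol, stood alone at 1283 with LPS and 103 without. Insig2, a restraint on sterol synthesis, and Hmgcs1, an early enzyme of it, differed 2.88-fold and 2.23-fold, and Dhcr7, a late enzyme, was at 154 with LPS and 391 without. The cholesterol exporters Abca1 and Abcg1 measured 2156 and 1453 with LPS and 2499 and 1474 without. Lpin1, a phosphatidate phosphatase, differed 4.22-fold, at 60.6 with LPS and 256 without. NRF2 and glutathione genes had 1 of 23 higher and 5 lower, among them Nfe2l2, which encodes NRF2, at 1266 with LPS and 2776 without, and Gclm and Gclc of glutathione synthesis at 306 and 103 with LPS and 667 and 215 without. Under equal medians 2 of 23 were lower.

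Transcription factors of the resting macrophage were prominent among the lower genes. Cebpa, a driver of myeloid differentiation, was at the floor with LPS and at 1235 without, at least 32.2-fold lower, the largest decrease on the array; its relative Cebpb measured 6198 with LPS and 2556 without. Pparg stood at 45.2 with LPS and 323 without, Fli1 at 265 and 1175, Mef2a at 689 and 2459 and Mef2d at 141 and 415. The mean over its probe sets brought Mef2d below 2-fold, at -0.83 on the log2 scale. Spi1, which encodes PU.1, differed 1.25-fold at 2916 and 2342. In all, 8 of 25 lineage factors were lower and 5 higher, among the higher ones Tcf4 at 2484 with LPS and 583 without and Ikzf1 at 487 and 129.

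Immediate early and stress factors had 11 of 39 lower and 10 higher. Fos and Jun, the classic AP-1 pair, measured 1347 and 1488 with LPS and 4044 and 3669 without, and Jun fell short of 2-fold under equal medians. Myc was at 74.9 with LPS and 445 without, and Id3, an inhibitor of helix-loop-helix factors, at 159.6 and 864. Mxd1, a MYC antagonist, went the opposite way at 691 with LPS and 38.6 without. Batf2 and Arid5a, regulators of cytokine expression, differed 10.4-fold and 10.6-fold, and Jdp2, a repressor of AP-1, 15.5-fold at 3372 with LPS and 218 without. Lhx2, a homeobox factor, measured 985 with LPS and 46.7 without, and the zinc finger factor Plagl1 745 with LPS and the floor without. For Tsc22d3, a glucocorticoid-induced gene, probe sets disagreed, with log2 differences of opposite sign that reached 1.56, so no direction is given.

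Ribosome biogenesis and DNA replication genes were often lower. In ribosome biogenesis 14 of 30 compared genes were lower and none higher, against 9.50% and 10.5% of all genes, with a median log2 difference of -0.96 that ran from -0.95 to -1.20 under the other scalings. With the stricter brightness filter, which leaves fewer genes, 6 were lower. Wdr12 and Gnl3, nucleolar assembly factors, measured 76.9 and 211 with LPS and 356 and 880.2 without. Nop56 and Nop58, core proteins of box C/D particles, stood at 193 and 86.6 with LPS and 726 and 254 without. The abundant nucleolar proteins Npm1 and Ncl differed by 1.27-fold and 1.37-fold, at 3153 and 3181 with LPS and 4004 and 4368 without. Ribosomal protein genes themselves were nearly level, with a median log2 difference of -0.13, which was 0.15 under equal medians. The exception, Rpl12, was read by a dim probe set at the floor with LPS and at 221 without.

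DNA replication genes were lower in 13 of 35 cases and higher in 1, with 5 lower under the stricter filter. Rrm2, the ribonucleotide reductase subunit of S phase, measured 217 with LPS and 777 without, Uhrf1 79.7 and 296 and Prim1, a primase subunit, 134 and 394. Mcm2, of the replicative helicase, stood at 94.0 and 433, while its second probe set gave a log2 difference of -0.71. Pcna, the sliding clamp, was level at 11732 and 11999.9. Mitosis genes had 4 of 44 lower, near the 9.50% of all genes, and 1 higher, with Mki67 at 607 and 440.3, and 7 of 44 were lower in the intensities as deposited. Regulators of the G1 phase split, with 6 of 23 higher and 2 lower. Ccnd2 measured 2393 with LPS and 242 without, and all of its 7 probe sets gave log2 differences between 2.33 and 3.44, while Ccnd1 was at 3339.9 and 5119. Cdkn2d, an inhibitor of CDK4 and CDK6, differed 5.12-fold and Rbl1, a pocket protein, 5.11-fold.

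Among p53 targets 7 of 20 were lower and 3 higher. Sesn1, which restrains mTORC1, measured 61.9 with LPS and 1283 without, and Gadd45a, a stress protein of growth arrest, 134 and 1547. Phlda3, an AKT inhibitor, differed 4.28-fold in the same direction. The 3 higher genes were the death receptor Fas at 862 with LPS and 50.9 without, Mdm2, the ubiquitin ligase of p53, at 5844 and 1955, and Apaf1 at 1167 and 407. Cdkn1a (p21) was level at 6395 and 5493. The survival and inflammasome list had 13 of 28 higher and none lower. Gadd45b measured 4450.0 with LPS and 513 without, opposite to Gadd45a, and Casp4, the sensor of cytosolic LPS, 4063 and 591. Cflar and Birc3, which block caspase 8, differed 4.78-fold and 4.99-fold, and Nlrp3 2.51-fold, while Casp1 stood at 6961 with LPS and 2879 without.

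Surface receptors of myeloid cells differed in both directions, and each count here stands beside 10.5% higher and 9.50% lower of all compared genes. Of 23 Fc receptors and C-type lectins 2 were higher, near that share, and 6 lower. Clec4e (Mincle), a receptor for mycobacterial glycolipid, measured 9536 with LPS and 1179 without. Other lectins were lower, with Clec4n (Dectin-2) at 218 with LPS and 1654 without, Clec4a2 at 433 and 2016 and Clec7a (Dectin-1) at 1615 and 5131. Sirpa, the receptor of CD47, stood at 3413 and 7394, and it fell short of 2-fold in the intensities as deposited and under the equal median and ribosomal scalings. Receptors for chemokines and cytokines had 8 of 31 higher and 6 lower, or 3 lower under equal medians. Il15ra, which presents interleukin-15, measured 1911 with LPS and 64.3 without, while Cxcr4, a bone marrow retention receptor, was at 106 and 425 and at 391 in the array with LPS and EGTA. G protein-coupled receptors and their regulators had 7 of 23 higher and 8 lower. Gpr84, a receptor of medium-chain fatty acids, differed 4.73-fold, Cnr2, the peripheral cannabinoid receptor, was at the floor with LPS and at 464 without, and the arrestins Arrb1 and Arrb2 measured 95.5 and 430.2 with LPS and 422 and 1775 without.

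Extracellular proteases and their inhibitors had 8 of 24 higher and 3 lower, against 10.5% and 9.50% of all genes. Timp1, an inhibitor of metalloproteinases, measured 583 with LPS and 51.8 without, and the membrane protease Mmp14 1082 and 123. Mmp8, the neutrophil collagenase, was at 69.9 with LPS and 514 without. Cytoskeletal genes had 8 of 48 higher and 7 lower, against the same 10.5% and 9.50%. Fscn1, the actin bundler of dendrites, was at 576 with LPS and at the floor without. Marcksl1 differed 11.3-fold and Cnn3, a calponin, measured 1951 with LPS and was at the floor without, at least 50.8-fold higher, with 5 probe sets from 3.56 to 5.67 on the log2 scale. Coro1a, an actin regulator of leukocytes, stood at 1189 with LPS and 5205 without, and Cdc42ep3 was at the floor with LPS and at 368 without. Complement and acute phase genes included Cfb, factor B, at 748 and 79.7, Saa3 at 6260.3 and 423, and C1qa at 1107 and 2559.

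Further large decreases had no list of their own. Metrnl, a secreted cytokine-like protein, measured 488 with LPS and 4465 without, Eps8, an actin-capping protein, 204 and 1765, and Nabp1, a single-stranded DNA-binding protein, 292 and 1979.5. The kinase genes Cdk18 and Pdxk stood at 255 and 595 with LPS and 1636 and 3636 without. Nfam1 and Sla, modulators of immunoreceptor signalling, were at 111 and 83.9 with LPS and 774 and 532 without. Dbp, an output gene of the circadian clock, was at the floor with LPS and at 214 without. Chromatin genes included Dnmt3a, a DNA methyltransferase, at 289 and 1163, although its 5 probe sets ran from -2.01 to -0.56 on the log2 scale, and Kat2b, an acetyltransferase, at 2080.0 and 415. Upp1, which breaks down uridine, Gnb4, a G protein subunit, and Hspa1b, a heat shock protein, differed 9.80-fold, 13.3-fold and 5.93-fold upward.

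NFAT is the subject of the series. Of 20 compared genes tied to calcium and NFAT, 4 were higher and none lower, against 10.5% and 9.50% of all genes, and the median log2 difference was -0.19, or 0.01 under equal medians. Besides Rcan1, these were Itpkb, an inositol phosphate kinase, at 989 with LPS and 329 without, Camkk2, a calmodulin-dependent kinase, at 649.6 and 293, and Nfat5 at 165 and 81.1. With the mean over probe sets 2 of 20 remained at least 2-fold higher. Nfatc1 and Nfatc3 measured 168 and 187 with LPS and 268 and 314 without, and the calcium channel subunit Orai1 358 and 622. The array with LPS and EGTA at 6 h gave 837 for Rcan1, 943 for Itpkb, 506 for Camkk2 and 152 for Nfat5.

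Over the promoter windows of all genes, the NF-kB, ISRE and AP-1 letters were more frequent among the higher genes than among genes within 2-fold. AP-1 letters were also more frequent among the lower genes. Windows covered 250 bases before to 50 after a transcript start and were found for 5742 of the 6936 genes. NF-kB letters were in 10.3% of the 253 windows of genes at least 4-fold higher, 5.93% of the 793 of genes at least 2-fold higher, 3.55% of the 733 of genes at least 2-fold lower and 4.13% of the 5910 of genes within 2-fold. ISRE letters were in 11.9%, 12.7%, 4.64% and 6.92% of these sets in the same order. The AP-1 letters TGANTCA were in 11.1%, 8.83%, 6.96% and 4.52%. E-box letters CACGTG, bound by MYC among others, ran the other way, in 7.51%, 7.82%, 12.3% and 10.8%, and in 6 of 29 windows (20.7%) of the ribosome biogenesis list. The GAS letters TTCNNNGAA were in 8.20% of windows of genes at least 2-fold higher, against 6.76% of all compared genes, and the TATA letters TATAAA in 11.1%, against 7.13%. TATA letters were also in 7.23% of windows of genes at least 2-fold lower and 14.7% of those at least 4-fold lower. The CRE letters TGACGTCA were in 2.27% of windows of the higher and 2.59% of the lower genes, against 3.08% of all compared genes. Over all RefSeq windows the GAS, TATA and CRE letters were in 8.30%, 13.6% and 1.79%, so these shares depend on the set compared. The same holds for the AP-1 and E-box letters, in 7.81% and 7.15% of all RefSeq windows, near their shares among genes at least 2-fold higher. NF-kB and ISRE letters were in 4.36% and 8.56% of all RefSeq windows. All were searched on both strands, and the NF-kB and ISRE letters can overlap but cannot share all 9 positions. These shares are descriptions with no test, and genes with several starts count once for each.

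**Figure D4:**
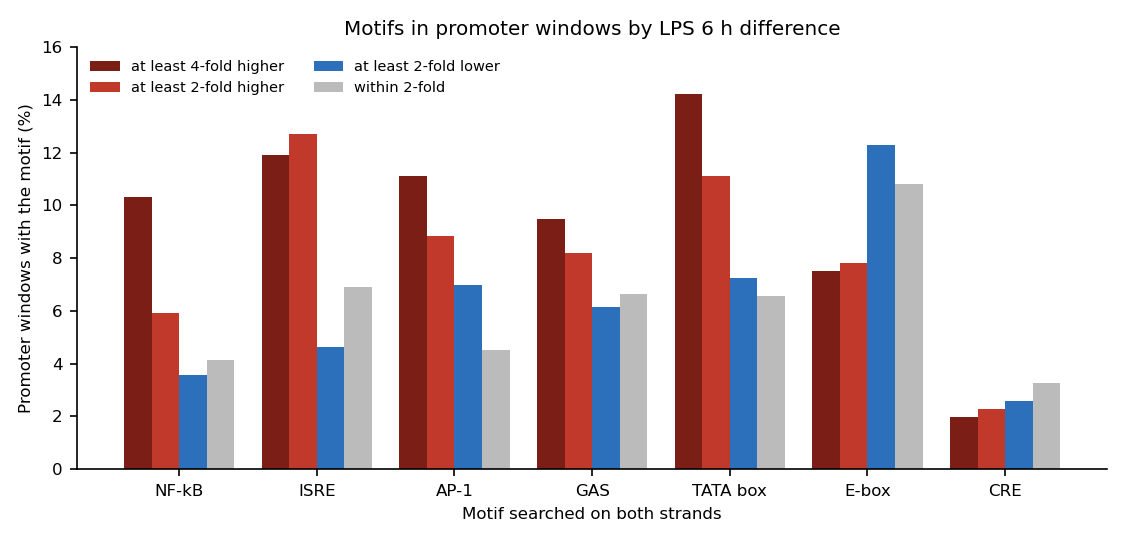
Percent of promoter windows holding each of 7 motifs in genes at least 4-fold higher (253 windows), at least 2-fold higher (793), at least 2-fold lower (733) and within 2-fold (5910) at 6 h of LPS. NF-kB letters stand at 10.3% in the first set and 4.13% in the last, and E-box letters at 7.51% and 10.8%.

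The 6 h response can be set beside the later wild-type array, which was compared with the same unstimulated array, so only levels are given. Over the 727 higher genes the median log2 level was 7.69 at 0 h, 9.70 at 6 h and 9.41 at 24 h, and over the 659 lower genes 8.76, 7.28 and 7.78. Here 0 h stands for the unstimulated cells, which were collected 24 h after plating. The levels therefore do not form a course in time since plating. Genes chosen at 6 h are at their extreme there by that choice. Individual genes differed in how their 6 h and 24 h levels compared. Edn1 measured 38.4, 1155 and 149 at 0, 6 and 24 h, and Ndrg1 821, 2419.6 and 284, so both were lower at 24 h than at 6 h. Il1b at 101, 4472 and 5388 and Saa3 at 423, 6260.3 and 15887 were higher at 24 h than at 6 h. Socs3 stayed high at 432, 8136 and 6579. Among lower genes Myc measured 445, 74.9 and 38.4, and Metrnl 4465, 488 and 2549.

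**Figure D5:**
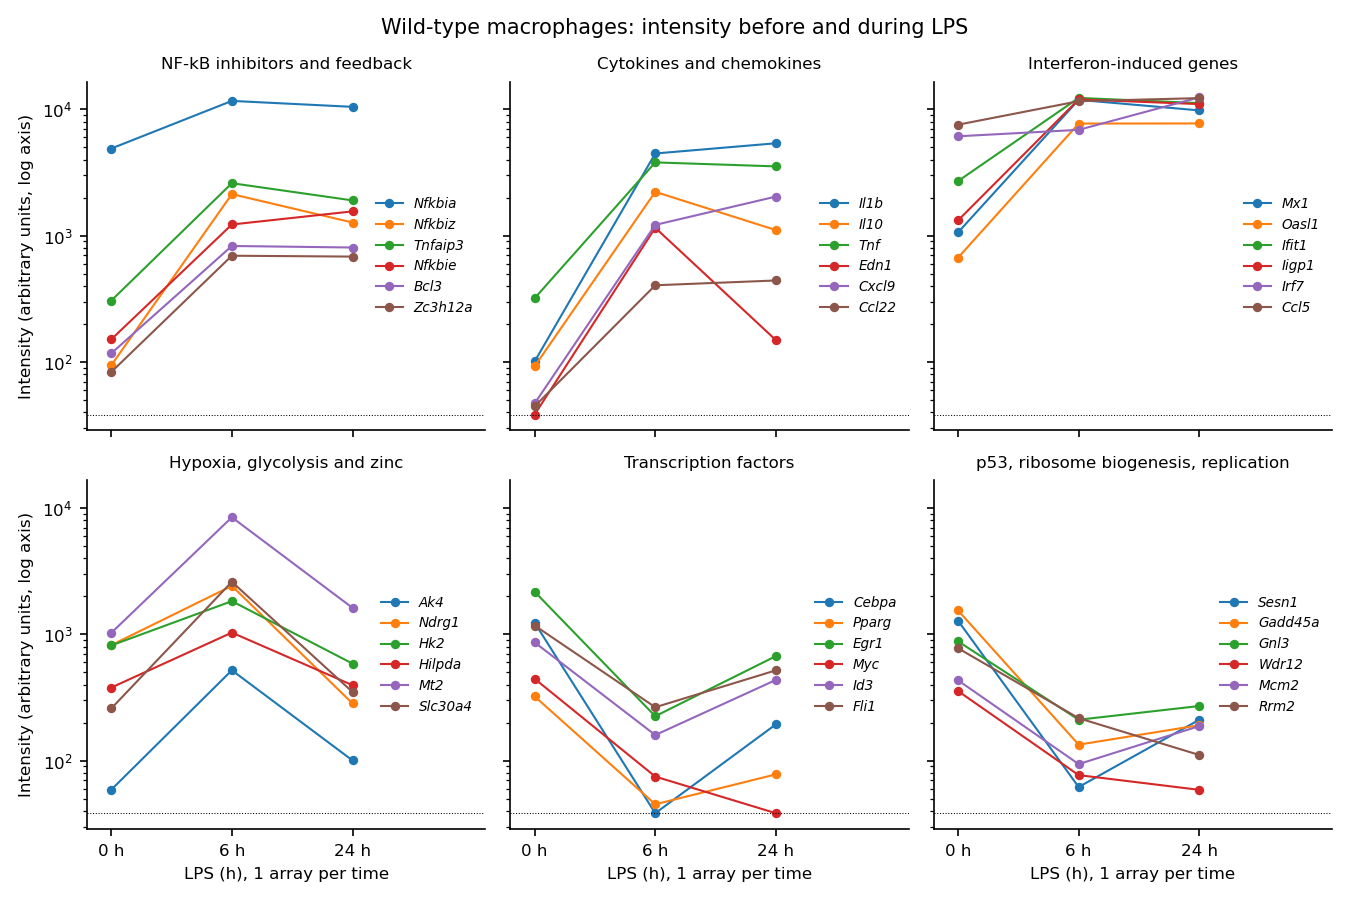
Intensity (log axis) of 36 genes in wild-type cells at 0, 6 and 24 h of LPS, 6 genes per panel, 1 array per time joined by lines, with a dotted line at the floor of 38.4. The 0 h points are unstimulated cells collected 24 h after plating, so the lines are not a course in time since plating. NF-kB genes and cytokines other than Edn1 stay up at 24 h. The hypoxia and zinc genes lie between 100.5 and 1621 at 24 h, with Ndrg1 below and Ak4 and Mt2 above their intensity without LPS. Cebpa is at the floor at 6 h and at 194 at 24 h.

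The 6 h comparison in CD14-deficient cells uses 2 other arrays and shares none with wild type. Its protocol gives the same LPS dose of 1 µg/ml but does not call the LPS smooth, as the wild-type protocol does. There 6929 genes were compared, of which 714 (10.3%) were higher by the same fold threshold and 623 (8.99%) lower. Of the 727 genes higher in wild type 674 were compared there, and 481 of them (71.4%) were also higher and 1 lower. These were 70.3% of the 684 genes higher in CD14-deficient cells and compared in wild type. Of the 659 lower genes 636 were compared, and 345 (54.2%) were also lower and 1 higher, which were 59.5% of the 580 lower there and compared in wild type. Unstimulated cells of both genotypes were collected 24 h after plating, so this overlap covers time since plating as well as LPS.

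Differences between the genotypes' responses have no test, since each response is 1 pair of arrays. The widest on the wild-type side were in Il33, given above, Cnn3, at 126 with LPS and at the floor without in CD14-deficient cells, Cxcl9, at 134 and the floor, and Rgcc, a cell cycle regulator, at 789 with LPS and 84.0 without in wild type and at the floor on both CD14-deficient arrays. Klrk1, which encodes the receptor NKG2D, measured 333 with LPS and the floor without in wild type and 47.5 and the floor in CD14-deficient cells. Socs2 was at 331 with LPS and 109 without in wild type and at 66.5 and 121 in CD14-deficient cells. On the other side Saa3 was at 14701 with LPS and 42.8 without in CD14-deficient cells, and Ifit1 at 11088 and 67.5. The inflammatory genes Il1b, Il6 and Tnf reached 13064, 2510.2 and 8213 with LPS in CD14-deficient cells, above the 4472, 1538 and 3802 of wild type, and Il10 reached 684 against 2223.

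Genes with several probe sets were read by each of them on the same 2 arrays. Only the brightest further probe set of each gene was counted. A further probe set that was dim on 1 array could enter only by being brighter on the other. Agreement in sign was therefore partly set by the filter, and the share that agreed over all genes was not counted. Of the 283 higher genes with a further probe set above the filter, 282 had that probe set above 0 and 245 at least 2-fold higher. Of 244 lower genes, 238 had it below 0 and 165 at least 2-fold lower, and in neither group was it 2-fold the other way. Probe sets that were not counted can point the other way, and those of Tsc22d3 disagreed in sign. Over 2747 genes the probe sets of a gene spanned a median range of 0.31 in log2 difference, with a 90th percentile of 0.87. Probe sets of a gene share the RNA and the array. Markers of other cells were mostly at the floor on both arrays, with 9 of 13 neutrophil, 14 of 16 T and NK cell, 8 of 10 B cell and 10 of 12 fibroblast markers there. So were 6 of 9 dendritic cell, 6 of 9 mast cell and basophil and 5 of 8 erythroid and megakaryocyte markers. Defining genes such as Mpo, Elane, Cd3e, Cd79a and Col1a1 were among them. Of all 12394 named genes, 4753 were at the floor on the LPS array and 4801 on the unstimulated array, so at most 4753 were at the floor on both. Of 3 dendritic cell markers compared 2 were lower and 0 higher, and that list's summed intensity was 592 with LPS and 819 without. Of 2 B cell markers compared 1 was lower and 1 higher, Ighm, at 222 with LPS and 55.1 without. Of 2 T and NK cell markers compared 1 was lower. The summed intensity of neutrophil markers was 1451 with LPS and 1277 without, in which Lcn2 and Mmp8 moved oppositely, and that of mast cell and basophil markers 798 and 478, of which Hdc, the histamine-forming enzyme, made up 434 with LPS and the floor without. The part of such cells in the response was not tested.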

How the data were processed

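Labelled cRNA of each sample was hybridised to 1 Affymetrix array. The deposited values are linear intensities of 22690 probe sets, made by the authors with MAS5 (submitters' processing notes, version not given); scaling and detection calls are not given in the sources used here. The 8 arrays were quantile normalised, which removes any shift of all genes together, floored at their 40th percentile (38.4) and log2 transformed. Of the probe sets, 20393 had 1 gene, 691 several and 1606 none, and 20364 matched RefSeq (GRCm38.p6) by gene identifier. The most intense probe set on average stood for its gene, which was compared if either array passed 88.2, the median of all values. With 1 array per group there was no test, and the number of arrays limits the precision. Genes allowed by the naming rule were the 20 largest differences each way above the floor; the 10 largest from and to the floor; in each of 58 lists the first 4 and the 8 largest; the 10 largest differences between genotypes each way and those with opposite calls; the 5 with the most discordant probe sets; the 10 brightest higher genes; and those whose promoter is printed. Cenpf and Gab1 mark the filter. These members and lists were chosen with earlier results of these data known, and 231 of 1719 list genes are not analysed here. Alternatives changed scaling, floor, filter and probe set choice. The procedure was tested on simulated data. Python 3.11.15, pandas 2.3.3, numpy 2.4.6 and matplotlib 3.10.9 were used.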

Additional observations from a re-analysis of the deposited data

Results flagged for a closer look

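Across the genes compared in both genotypes, 2 were at least 2-fold higher at 6 h of LPS in one and at least 2-fold lower in the other. Cd74, the invariant chain of class II, had a log2 difference of -1.06 in wild-type cells, at 1367 with LPS and 2851 without, and of 1.09 in CD14-deficient cells, at 1079.9 and 508. Vegfa had a log2 difference of 1.20 in wild-type cells, at 346 with LPS and 151 without, and of -1.42 in CD14-deficient cells, at 97.3 and 261. Both wild-type values lay near the threshold. Cd74 fell short of 2-fold as deposited and under the equal median and ribosomal scalings, and Vegfa under ribosomal scaling. Each value is 1 pair of arrays, and the difference between genotypes was not tested.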

How the results depend on the processing

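The count of higher genes ran from 587 to 849 and that of lower genes from 460 to 896 over the alternatives other than the stricter filter. With the filter at the 75th percentile, 3944 genes were compared, and 480 were higher and 326 lower, all of them also called before. Scaling shifted the balance. As deposited, 682 were higher and 872 lower; with equal medians 849 and 547; with equal ribosomal protein medians 637 and 896; with quantile normalisation over the 2 arrays alone 721 and 651. The floor at the 20th percentile gave 726 and 659 and at the 55th 587 and 460. The mean over probe sets gave 666 and 530, probe sets without a suffix in their identifier 712 and 650, and no filter 745 and 677. No named gene called at least 2-fold changed sign in any alternative in which it was still compared. Of 344 such genes, 258 were still compared under the stricter filter, and 0 of these fell short of 2-fold. Under each other alternative 334 to 344 were still compared, and between 0 and 36 of them fell short, 36 at the higher floor. MAS5 intensities without detection calls limit dim genes. No paired analysis was possible because each group has 1 array.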
